A study of Mus musculus with 31 samples.

Results

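The 10 collagen and fibrosis matrix genes described here were measured in the livers of 4 inbred mouse strains given PF-04287881, a candidate antibiotic, or vehicle. They were chosen by name, out of 18147 genes with a symbol, as Col1a1, Col1a2, Col3a1, Col4a1, Col4a2, Col5a2, Postn, Lum, Sparc and Timp1. Each symbol was looked up in the array annotation, and of a gene's probe sets the one brightest on average over the 31 arrays was used. Female mice, 8 to 10 weeks old at the start, received PF-04287881 at 600 mg/kg or sterile water by oral gavage once a day for 7 days. Left liver lobe was taken 24 hours after the last dose and its RNA was measured on 1-colour Affymetrix arrays. The treated groups were MA/MyJ, NZW/LacJ and SM/J with 4 animals each and WSB/EiJ with 3, since 1 WSB/EiJ animal was lost to a gavage error, and each strain had 4 vehicle animals. MA/MyJ and NZW/LacJ were coded by the submitters for Kupffer cell vacuolation after treatment, and NZW/LacJ for single cell necrosis. The mice carried no engineered allele per the labels, and each strain is a single inbred genome.

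Fibrillar collagens give connective tissue its tensile strength, and the chains of types I and III are the bulk of the matrix laid down in liver fibrosis. Type IV collagen forms the sheet of basement membranes, and in liver it lines vessels and ducts and occurs in the space beside the sinusoids. Hepatic stellate cells and portal fibroblasts are the main makers of fibrillar collagen in injured liver, while sinusoidal endothelial cells also make type IV chains. Periostin, lumican, SPARC and TIMP-1 act around the fibres, in their assembly, cell contact and protection from proteases.

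The 4 genes that passed the test of the average PF-04287881 effect, described below, were Col1a2, Col3a1, Col4a1 and Postn, and the 250 bases before an annotated start of each are shown because these genes moved in the same direction. The sequences are RefSeq's on build GRCm38.p6, read 5′ to 3′ on the strand of the gene. Capitals mark exact matches, on either strand, to the TATA box (letters TATAAA), the CCAAT box (letters CCAAT) or the GC box (letters GGGCGG). No match overlapped another.
Col1a2, chr6:4505368-4505617, plus strand: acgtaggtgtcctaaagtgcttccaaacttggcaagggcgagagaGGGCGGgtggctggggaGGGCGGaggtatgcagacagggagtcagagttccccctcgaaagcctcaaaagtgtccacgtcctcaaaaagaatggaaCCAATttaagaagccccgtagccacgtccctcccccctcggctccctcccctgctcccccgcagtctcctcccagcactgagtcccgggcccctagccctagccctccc
Col3a1, chr1:45311288-45311537, plus strand: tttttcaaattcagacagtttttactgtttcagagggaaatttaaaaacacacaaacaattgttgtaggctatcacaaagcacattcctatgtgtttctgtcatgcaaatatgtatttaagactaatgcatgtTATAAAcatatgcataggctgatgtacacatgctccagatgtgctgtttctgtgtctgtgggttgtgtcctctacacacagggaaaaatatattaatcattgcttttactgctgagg
Col4a1, chr8:11312827-11313076, minus strand: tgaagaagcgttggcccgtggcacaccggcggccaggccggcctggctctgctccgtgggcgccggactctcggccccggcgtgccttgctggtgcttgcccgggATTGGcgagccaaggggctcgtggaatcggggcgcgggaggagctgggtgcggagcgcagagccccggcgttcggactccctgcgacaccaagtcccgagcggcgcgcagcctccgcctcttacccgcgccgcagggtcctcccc
Postn, the second of 2 annotated starts, chr3:54360857-54361106, plus strand: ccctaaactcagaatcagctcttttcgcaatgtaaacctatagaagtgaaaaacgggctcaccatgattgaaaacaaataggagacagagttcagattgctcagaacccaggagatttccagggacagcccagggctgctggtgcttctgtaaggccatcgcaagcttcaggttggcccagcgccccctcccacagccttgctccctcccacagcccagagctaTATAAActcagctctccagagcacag
Col1a2 held 1 CCAAT box at -109 and 2 GC boxes at -205 and -188 from the start. Col3a1 held a TATA box at -117, Col4a1 a CCAAT box on the other strand, read as ATTGG, at -145 and Postn a TATA box at -26, so no motif was common to all 4. The window before the first annotated Postn start, not shown, held 0 TATA, 0 CCAAT and 0 GC boxes. Among 32851 promoter windows of the same length, 12.4% held the TATA box, 33.8% the CCAAT box and 32.7% the GC box. A match is a description of letters and not a site of binding. Col4a1 and Col4a2 are annotated head to head, and their starts enclose a shared stretch of 22 bases, shown because a pair of genes with 1 start region was measured by separate probe sets. It held a GC box, in capitals.
Col4a1 and Col4a2 shared stretch, chr8:11312805-11312826, plus strand: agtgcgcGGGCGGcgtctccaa
Windows were also available for Sparc and Timp1, while Col1a1, Col5a2 and Lum had none in the table.

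Values are log2 RMA values per probe set, so a difference of 1 is a doubling, and a level is not compared between genes. Of the 10 genes, 8 exceeded 6.49, the median of all values, in at least 3 arrays and were tested among 12890 genes. Col1a1 exceeded it in 2 arrays and Timp1 in 1, so their tests come from a fit of all 18147 genes. Animal 3 of the treated WSB/EiJ group, the array in doubt, went against its strain label. On probe sets private to 1 strain, the 10 genes left out, it lay at -0.01 on a scale where WSB/EiJ vehicle is 1 and the other strains average 0, and at 1.02 on the NZW/LacJ scale. The other 30 arrays lay between 0.881 and 1.09 on their own strain's scale and between -0.07 and 0.16 on the others. This used probe sets at least 3 log2 units apart, of which there were 19 for WSB/EiJ and 7 for NZW/LacJ. With a gap of 2, tried after those values had been seen, there were 84 and 33, the array lay at -0.0047 and 1.02, and the lowest value of the others on their own scale was 0.805. The average and WSB/EiJ effects of the 10 genes that passed are therefore given with and without it, and so are the other calls that changed. Without it, 2 treated WSB/EiJ animals remained. In bulk liver, more cells of a type and more RNA per cell cannot be told apart.

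Averaged over the 4 strains, PF-04287881 livers had higher Col3a1, Col4a1, Postn and Col1a2 than vehicle livers. The log2 differences were 0.94 ± 0.25 for Col3a1 (limma, Benjamini-Hochberg adjusted p = 0.0070), 0.74 ± 0.20 for Col4a1 (adjusted p = 0.0088), 0.59 ± 0.13 for Postn (adjusted p = 0.0013) and 0.50 ± 0.14 for Col1a2 (adjusted p = 0.0082), with the model's standard error after each. In fold terms these were 1.92, 1.67, 1.5 and 1.42. Thus 4 of the 8 tested genes were higher and 0 lower, against 22.2% of all tested genes called in either direction, 13.3% higher and 8.92% lower. The median difference was 0.36 over the 8 genes and 0.0043 over all tested genes. Col4a2 was at 0.23 ± 0.10 (adjusted p = 0.096), Lum at 0.07, Sparc at 0.06 and Col5a2 at -0.28, none past the threshold of 0.05. Without the array in doubt the differences were 0.86 for Col3a1, 0.92 for Col4a1, 0.56 for Postn and 0.51 for Col1a2. In that fit 5 genes passed, with Col4a2 added at 0.28 (adjusted p = 0.020), while 32.7% of all tested genes passed. Col1a1 was at 0.23 (adjusted p = 0.22) and Timp1 at 0.22 (adjusted p = 0.071) in the fit of all genes, and Timp1 passed at 0.24 without that array (adjusted p = 0.045).

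**Figure D1:**
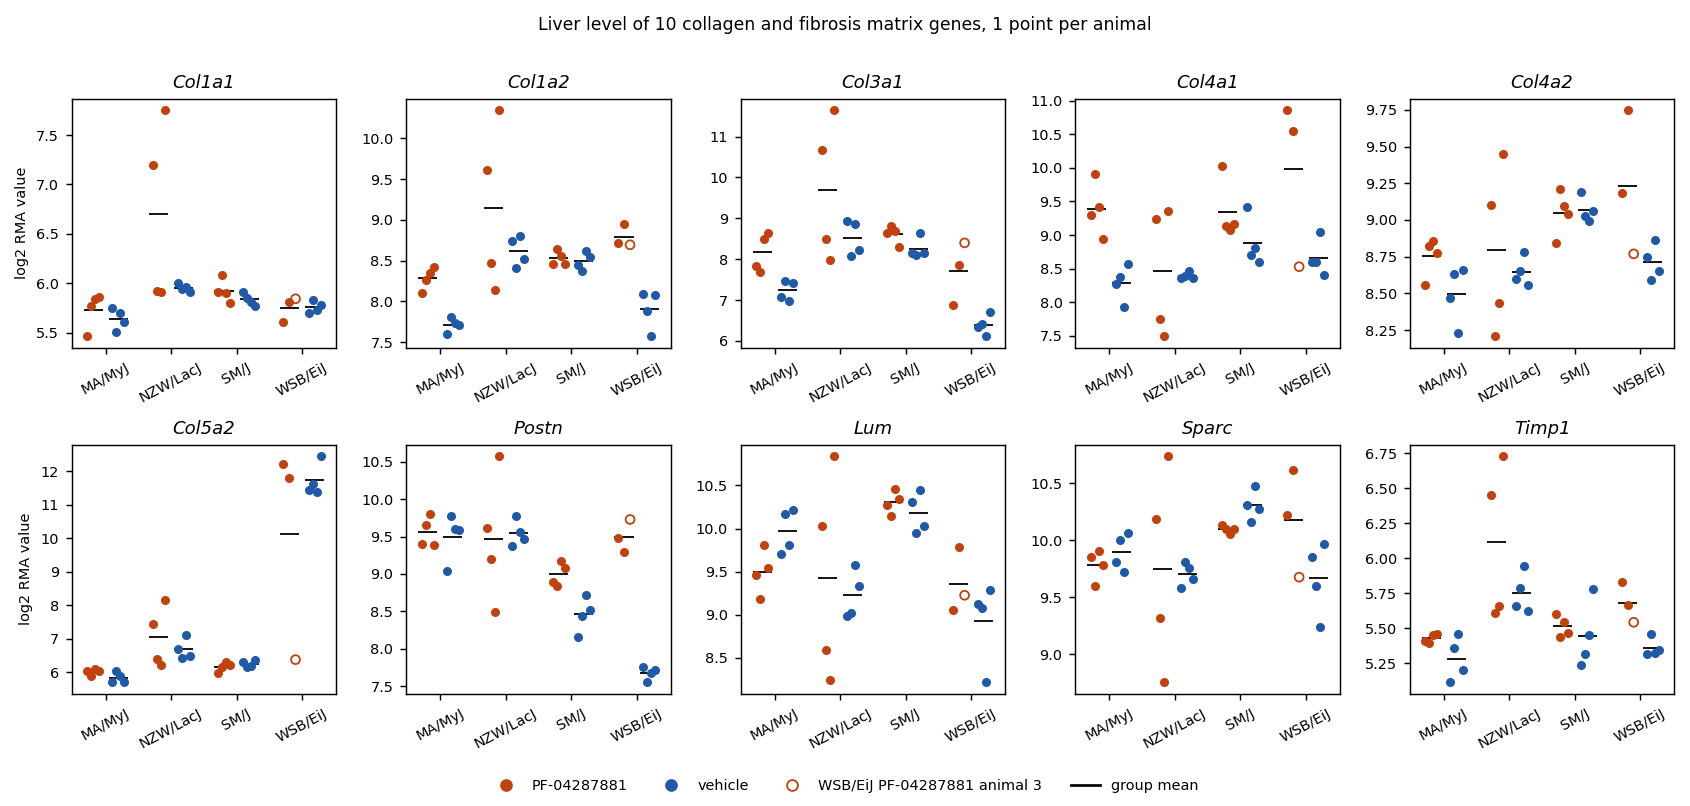
Log2 RMA value of each of the 10 genes (y axis, own scale per panel) in every animal by strain, PF-04287881 left of vehicle, with group means as lines and the array in doubt as an open circle. Postn in WSB/EiJ shows 3 treated animals at 9.29 to 9.73, the open circle highest, above 4 vehicle animals at 7.55 to 7.76. Col5a2 is near 12 in WSB/EiJ apart from the open circle at 6.37.

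Col1a1 encodes the alpha 1 chain of type I collagen. In NZW/LacJ it read 7.20, 5.93, 5.91 and 7.75 in PF-04287881 animals 1 to 4, against 6.0, 5.94, 5.97 and 5.91 in vehicle animals. Animals 1 and 4 were far above every vehicle animal and animals 2 and 3 lay within the vehicle range. The NZW/LacJ difference was 0.74 ± 0.23 (adjusted p = 0.031 in the fit of all genes). The gene's other probe set gave 0.41 (adjusted p = 0.16). The difference was 0.39 (adjusted p = 0.18) without treated animal 4 and 0.57 (adjusted p = 0.14) without treated animal 1. Leaving out any 1 of the 4 vehicle animals also ended the call, with adjusted p between 0.057 and 0.065. In the other strains treated and vehicle animals overlapped at 5.47 to 6.08, and the differences lay between -0.01 and 0.09.

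Col1a2 encodes the alpha 2 chain of type I collagen. In WSB/EiJ it read 8.72, 8.95 and, on the array in doubt, 8.69 in PF-04287881 animals, against 8.09, 7.88, 7.57 and 8.08 in vehicle animals. In MA/MyJ it read 8.10, 8.26, 8.35 and 8.42 in PF-04287881 animals, against 7.60, 7.81, 7.73 and 7.71 in vehicle animals. Treated and vehicle animals did not overlap in either strain. The difference was 0.88 ± 0.29 in WSB/EiJ (adjusted p = 0.032, and 0.93 with adjusted p = 0.031 without the array in doubt) and 0.57 ± 0.26 in MA/MyJ (adjusted p = 0.24). The WSB/EiJ call was lost on the mean of the gene's 3 probe sets (0.36, adjusted p = 0.15), and leaving out vehicle animal 2 or 3 or treated animal 1 or 2 gave adjusted p between 0.057 and 0.10. NZW/LacJ treated animals read 9.61, 8.47, 8.14 and 10.35, against 8.74, 8.41, 8.80 and 8.51 in vehicle animals, a difference of 0.52 (adjusted p = 0.17). In SM/J the groups overlapped and the difference was 0.03. A second, dimmer probe set gave an average difference of 0.35. On it all MA/MyJ vehicle animals and the WSB/EiJ vehicle mean, 6.46, lay below the median of all values. WSB/EiJ treated animals read 6.67 to 6.72 there, against 6.17 to 6.71 in vehicle animals. MA/MyJ treated animals read 6.437 to 6.692, against 6.111 to 6.445 in vehicle animals. Treated and vehicle animals thus overlapped in both strains on that probe set.

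Col3a1 encodes type III collagen, which forms fibres together with type I. MA/MyJ treated animals read 7.84, 7.70, 8.49 and 8.65, against 7.07, 7.48, 6.98 and 7.42 in vehicle animals. WSB/EiJ treated animals read 6.88, 7.86 and 8.40, against 6.35, 6.41, 6.12 and 6.70 in vehicle animals, the highest of the treated being the array in doubt. In both strains every treated animal was above every vehicle animal. NZW/LacJ treated animals read 10.66, 8.49, 7.97 and 11.65, against 8.93, 8.09, 8.86 and 8.21 in vehicle animals. SM/J treated animals read 8.63, 8.82, 8.68 and 8.30, against 8.15, 8.11, 8.64 and 8.14 in vehicle animals, and the groups overlapped. In single strains the Col3a1 difference was 1.32 in WSB/EiJ (adjusted p = 0.078), 1.17 in NZW/LacJ (adjusted p = 0.088), 0.93 in MA/MyJ (adjusted p = 0.32) and 0.35 in SM/J (adjusted p = 0.82). None passed in a single strain, and the WSB/EiJ difference was 0.98 (adjusted p = 0.21) without the array in doubt.

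Col4a1 encodes the alpha 1 chain of type IV collagen. WSB/EiJ treated animals 1 and 2 read 10.86 and 10.56, and the array in doubt read 8.53, against 8.60, 8.60, 9.05 and 8.40 in vehicle animals. MA/MyJ treated animals read 9.29, 9.90, 9.41 and 8.94, against 8.27, 8.37, 7.93 and 8.57 in vehicle animals. Both WSB/EiJ animals that matched their label, and all MA/MyJ treated animals, were above every vehicle animal of their strain. The WSB/EiJ difference was 1.32 ± 0.43 (adjusted p = 0.030), or 2.05 ± 0.38 (adjusted p = 0.00018) without the array in doubt. With it, the call was lost without treated animal 1 (0.88, adjusted p = 0.24) or 2 (1.03, adjusted p = 0.15), or without vehicle animal 1, 2 or 4 (adjusted p 0.056 to 0.064). The MA/MyJ difference of 1.1 missed the threshold over all arrays (adjusted p = 0.11) and passed without the array in doubt (adjusted p = 0.030), when 7.3% of all tested genes passed in MA/MyJ. SM/J treated animals read 10.03, 9.13, 9.08 and 9.16, against 9.42, 8.70, 8.80 and 8.59 in vehicle animals, and NZW/LacJ treated animals read 9.24, 7.75, 7.49 and 9.36, against 8.36, 8.39, 8.46 and 8.35 in vehicle animals. The NZW/LacJ treated animals thus lay on both sides of their vehicle animals, with a difference of 0.07. The gene's other probe set gave an average difference of 0.67 (adjusted p = 0.0028 over 24934 probe sets). With each gene on its probe set of largest spread, Col4a1 did not pass in WSB/EiJ.

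Col4a2 encodes the partner chain of Col4a1. WSB/EiJ treated animals read 9.18, 9.75 and, for the array in doubt, 8.77, against 8.75, 8.59, 8.86 and 8.65 in vehicle animals. The difference was 0.52 (adjusted p = 0.076) over all arrays and 0.75 ± 0.21 (adjusted p = 0.0082) without that array, when the groups no longer overlapped. MA/MyJ treated animals read 8.56, 8.82, 8.85 and 8.77, against 8.47, 8.63, 8.23 and 8.66 in vehicle animals, and the groups overlapped. In MA/MyJ the difference was 0.26 and in SM/J -0.02, neither past the threshold.

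Postn encodes periostin, a matricellular protein of remodelling connective tissue. WSB/EiJ treated animals read 9.47, 9.29 and, on the array in doubt, 9.73, against 7.76, 7.55, 7.67 and 7.72 in vehicle animals. The groups were 1.53 log2 units apart at their nearest. The difference was 1.82 ± 0.27, a 3.53-fold increase (adjusted p = 4.1e-05), and 1.70 (adjusted p = 0.00011) without the array in doubt. SM/J treated animals read 8.89, 8.84, 9.17 and 9.08, against 8.16, 8.44, 8.72 and 8.52 in vehicle animals. They too did not overlap, but the difference of 0.54 missed the threshold (adjusted p = 0.31). MA/MyJ treated animals read 9.40, 9.65, 9.80 and 9.39, against 9.03, 9.77, 9.59 and 9.59 in vehicle animals, a difference of 0.06. NZW/LacJ treated animals read 9.62, 9.20, 8.50 and 10.57, against 9.38, 9.77, 9.56 and 9.47 in vehicle animals, a difference of -0.07.

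Over the 8 tested genes, 3 passed in WSB/EiJ, all higher, against 19.3% of all tested genes called and 6.91% called higher. Without the array in doubt 4 of 8 passed, all higher, against 32.4% called and 13.8% called higher. By limma 0 of 8 passed in MA/MyJ, against 4.14%, while NZW/LacJ had 0 of 8, against 21.5%, and SM/J 0 of 8, against 2.59%. At an unadjusted p under 0.05 these strains had 2 (Col1a2, Col4a1), 1 (Col3a1) and 1 (Postn). The share of all tested genes at that unadjusted threshold was not counted, so these and later counts at it have no measure beside them. Counted over all 10 genes, every treated animal was above every vehicle animal for 4 in WSB/EiJ (6.31% of all tested genes), 3 in MA/MyJ (10.7%), 1 in SM/J (6.48%) and 0 in NZW/LacJ (22.0%). The 4 in WSB/EiJ were Col1a2, Col3a1, Postn and Timp1, and their treated animals included the array in doubt, which matched NZW/LacJ. NZW/LacJ vehicle means exceeded WSB/EiJ ones by 0.71, 2.13, 1.87 and 0.39 in these genes. In WSB/EiJ without the array in doubt, 2 treated animals were left. Both were then above every vehicle animal for 7 of the 10, these 4 among them, against 17.8%. The only gene of the 10 with every treated animal below every vehicle animal was Sparc in SM/J, where 7.15% of tested genes showed this.

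**Figure D2:**
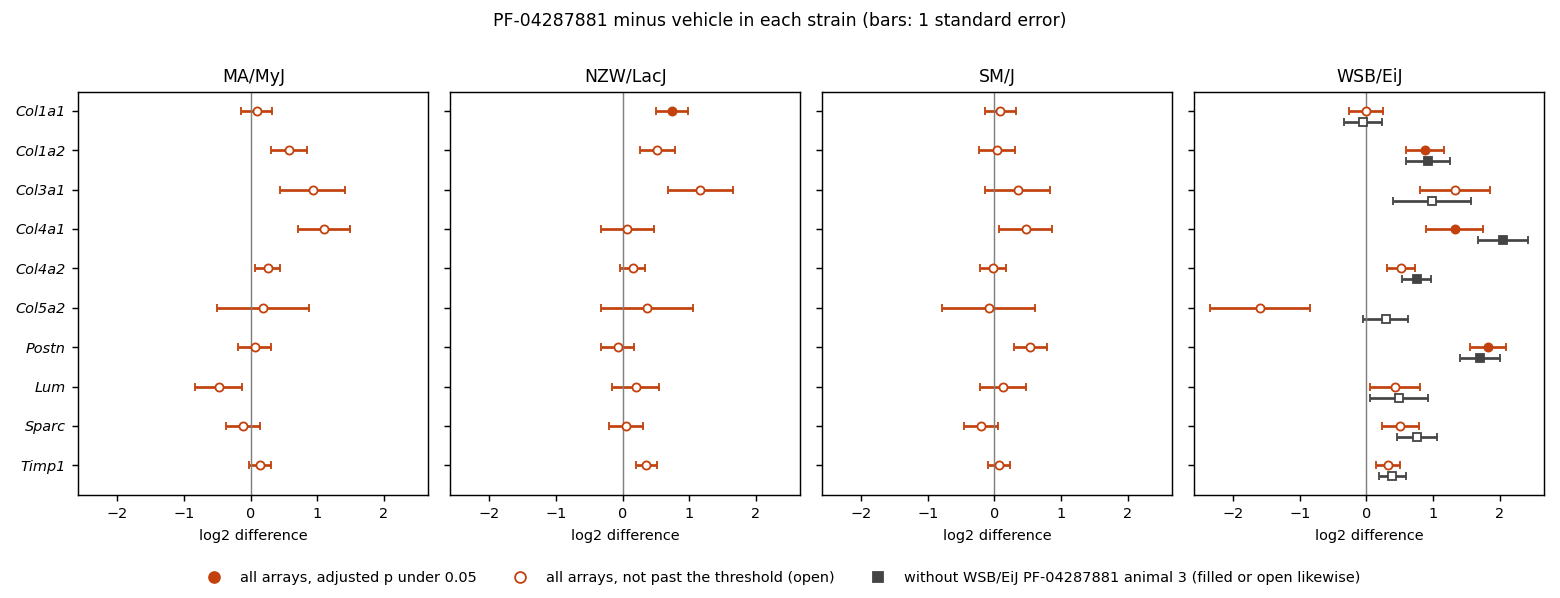
PF-04287881 minus vehicle (x axis, log2 difference, bars 1 standard error) for each gene (y axis) in each strain, filled where the adjusted p was under 0.05, with squares for the fit without the array in doubt. In WSB/EiJ Col4a1 lies at 1.32 with that array and 2.05 without it, and Col5a2 at -1.59 with it and 0.29 without it.

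The response of Postn differed between strains. The test of the strain-by-treatment terms gave adjusted p = 0.0016 for Postn, the only call among the 8 genes, against 19.4% of all tested genes. The Postn effect in the vacuolation-coded strains (MA/MyJ and NZW/LacJ, averaged), minus that in SM/J and WSB/EiJ, was -1.18 ± 0.25 (adjusted p = 0.0019, against 17.0% of all tested genes). The effect in NZW/LacJ, coded for necrosis, minus the mean of the other strains was -0.88 ± 0.29 (adjusted p = 0.038, against 15.1%). Leaving out any 1 of 9 animals ended that call, the smallest difference being -0.55 (adjusted p = 0.13) without NZW/LacJ treated animal 3. The Postn effect was thus lower in the strains with a coded finding, but coding cannot be told apart from other strain differences. Within single strains only the WSB/EiJ effect, 1.82, passed. Vehicle Postn was also highest in MA/MyJ and NZW/LacJ, 9.50 and 9.55, against 8.46 in SM/J and 7.68 in WSB/EiJ. MA/MyJ, not coded for necrosis, averaged 9.56 in treated animals, and NZW/LacJ 9.47. Without the array in doubt the Postn differences were -1.12 for vacuolation and -0.84 for necrosis, and Col4a1 also differed between strains (adjusted p = 0.013, against 32.4%), and its NZW/LacJ effect was -1.13 relative to the mean of the others (adjusted p = 0.028, against 21.8%).

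Vehicle animals differed by strain in Col5a2, Postn, Col3a1, Lum and Col1a2, 5 of the 8 genes, against 56.5% of all tested genes. Postn averaged 9.55 ± 0.17 in NZW/LacJ, 9.5 ± 0.32 in MA/MyJ, 8.46 ± 0.23 in SM/J and 7.68 ± 0.09 in WSB/EiJ (SD, n = 4 each). The first pair differed by less than their spread, while each lower step passed the test, MA/MyJ minus SM/J being 1.03 (limma, adjusted p = 0.0043, against 16.9% of all tested genes) and SM/J minus WSB/EiJ 0.78 (adjusted p = 0.017, against 32.9%, and 0.054 without SM/J vehicle animal 3). Postn also passed in NZW/LacJ minus SM/J (1.08, adjusted p = 0.0023, against 20.9%) and in MA/MyJ minus WSB/EiJ (1.82, adjusted p = 4.4e-06, against 28.1%). The treated WSB/EiJ animals, at 9.29 to 9.73 with the array in doubt highest, were thus within the vehicle range of MA/MyJ, 9.03 to 9.77. Col3a1 averaged 8.52 in NZW/LacJ, 8.26 in SM/J, 7.24 in MA/MyJ and 6.39 in WSB/EiJ vehicle animals, and NZW/LacJ and SM/J exceeded WSB/EiJ by 2.13 and 1.87 (adjusted p = 0.0012, against 38.4% of all tested genes, and 0.0044). Neighbours in that order did not pass against each other, and MA/MyJ minus NZW/LacJ, at -1.29, passed only without the array in doubt (adjusted p = 0.043 against 0.054 with it). On the second, dim Col3a1 probe set the vehicle means were 4.88 in NZW/LacJ, 4.90 in SM/J, 4.70 in MA/MyJ and 4.45 in WSB/EiJ. Lum averaged 10.18 in SM/J, 9.98 in MA/MyJ and 9.23 in NZW/LacJ vehicle animals, and 8.93 in WSB/EiJ, with SM/J and MA/MyJ above WSB/EiJ by 1.25 and 1.05 (adjusted p = 0.0074 and 0.026). The MA/MyJ call was lost without MA/MyJ vehicle animal 2 or 4 or WSB/EiJ vehicle animal 3, with differences down to 0.81 and adjusted p up to 0.11. Lum in NZW/LacJ minus SM/J, at -0.95, passed only without the array in doubt (adjusted p = 0.048 against 0.053 with it). Col1a2 averaged 8.62 in NZW/LacJ, 8.49 in SM/J, 7.91 in WSB/EiJ and 7.71 in MA/MyJ. No neighbours in the orders of Lum and Col1a2 passed against each other. For Col1a2, MA/MyJ was below NZW/LacJ by a difference of -0.91 (adjusted p = 0.014, against 24.2% of all tested genes). It was also below SM/J (-0.78, adjusted p = 0.042), and NZW/LacJ was above WSB/EiJ (0.71, adjusted p = 0.036). Leaving out 1 animal ended the MA/MyJ minus SM/J call in 8 cases and the NZW/LacJ minus WSB/EiJ call in 5, with adjusted p up to 0.092 and 0.11. The MA/MyJ minus NZW/LacJ call was lost in 0 cases. Col4a2 averaged 9.07 in SM/J, 8.71 in WSB/EiJ, 8.65 in NZW/LacJ and 8.50 in MA/MyJ vehicle animals. Sparc lay between 9.66 in WSB/EiJ and 10.30 in SM/J, and Col4a1 between 8.28 in MA/MyJ and 8.88 in SM/J. The strain test missed the threshold for Col4a2 (adjusted p = 0.063), Sparc (adjusted p = 0.11) and Col4a1 (adjusted p = 0.49). Single pairs that passed were Col4a2 in MA/MyJ minus SM/J (-0.57, adjusted p = 0.038, lost in 6 of 31 fits without 1 animal) and Timp1 in MA/MyJ minus NZW/LacJ (-0.47, adjusted p = 0.046, lost in 19). Without the array in doubt 6 of the 8 genes passed the strain test, Col4a2 being added (adjusted p = 0.036), against 63.0% of all tested genes. In that fit the genes called were 3 in MA/MyJ minus NZW/LacJ (30.0% of all tested genes), 2 in NZW/LacJ minus SM/J (26.2%) and 5 in SM/J minus WSB/EiJ (38.7%), where Sparc was added at 0.64 (adjusted p = 0.039).

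Col5a2 encodes a chain of type V collagen, which joins type I fibres and helps set their width. It read 12.22, 11.81 and, on the array in doubt, 6.37 in WSB/EiJ PF-04287881 animals, against 11.44, 11.63, 11.38 and 12.46 in vehicle animals. Vehicle animals of MA/MyJ, NZW/LacJ and SM/J averaged 5.83, 6.68 and 6.25, at or near the filter level of 6.49, with 0, 3 and 0 of 4 animals above it, so the array in doubt read like another strain. The measured mean of WSB/EiJ vehicle livers stood 5.05 log2 units above that of the next strain, NZW/LacJ. The size of this gap depends on dim readings in the other strains. The 3 differences from WSB/EiJ had adjusted p between 5.5e-07 and 4.7e-06. MA/MyJ minus NZW/LacJ was -0.85, which passed only without the array in doubt (adjusted p = 0.022 against 0.40 with it). The gene's other probe set averaged 9.89 in WSB/EiJ vehicle livers and 5.03 to 5.50 in the other strains. The WSB/EiJ treatment difference was -1.59 (adjusted p = 0.14) over all arrays and 0.29 (adjusted p = 0.56) without the array in doubt. Col3a1 lies next to Col5a2 on the chromosome and was lowest in WSB/EiJ, while Wdr75 on the other side, a ribosome assembly factor, was higher in WSB/EiJ vehicle livers. Wdr75 averaged 10.3 there, and MA/MyJ, NZW/LacJ and SM/J minus WSB/EiJ were -0.76, -0.94 and -1.12 (adjusted p = 0.0029, 0.00032 and 5.4e-05).

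**Figure D3:**
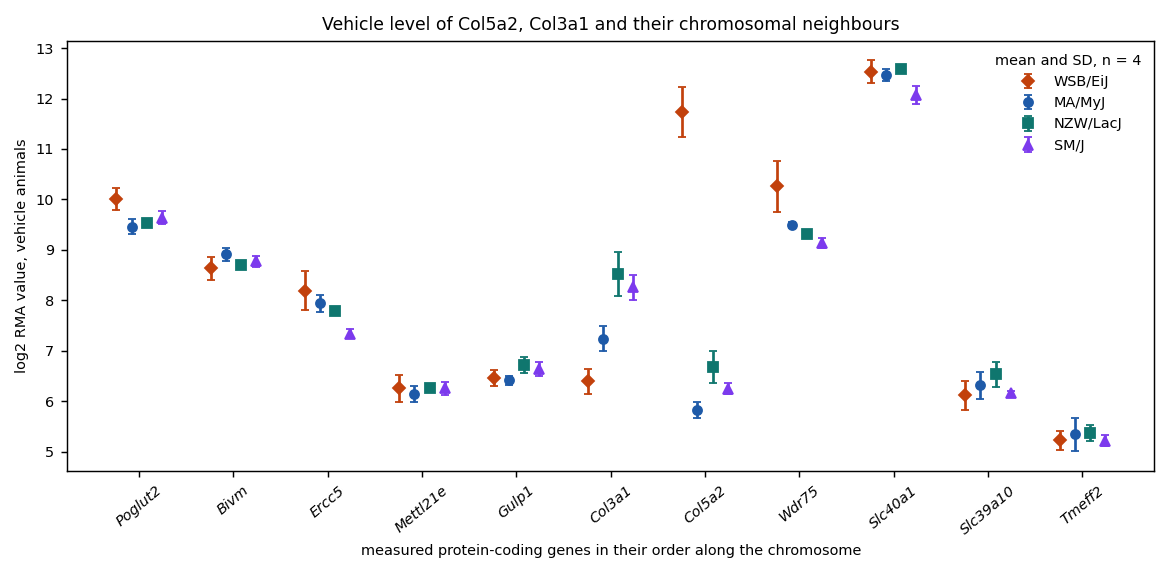
Mean and SD of the log2 RMA value in vehicle animals (y axis) for measured protein-coding genes in chromosomal order (x axis) around Col5a2, n = 4 per strain. WSB/EiJ stands apart at Col5a2, 11.7 against 5.83 to 6.68 in the other strains, and lies lowest at Col3a1.

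Lum encodes lumican, a proteoglycan that spaces collagen fibrils. MA/MyJ treated animals read 9.46, 9.18, 9.80 and 9.54, against 9.70, 10.17, 9.81 and 10.22 in vehicle animals, and the groups overlapped (difference -0.48, adjusted p = 0.51). Sparc encodes a collagen-binding glycoprotein. SM/J treated animals read 10.14, 10.10, 10.05 and 10.10, against 10.31, 10.16, 10.47 and 10.27 in vehicle animals. All 4 treated were lower, but the difference of -0.21 missed the threshold (adjusted p = 0.78). WSB/EiJ treated animals read 10.23, 10.62 and, on the array in doubt, 9.68, against 9.86, 9.6, 9.24 and 9.97 in vehicle animals. The Sparc difference there was 0.51 (adjusted p = 0.20), and 0.76 (adjusted p = 0.052) without that array. Timp1 encodes an inhibitor of matrix metalloproteinases. WSB/EiJ treated animals read 5.83, 5.66 and, on the array in doubt, 5.54, against 5.32, 5.46, 5.32 and 5.35 in vehicle animals. The groups did not overlap, and all values were below the filter level (limma, difference 0.32, adjusted p = 0.26).

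The 4 treated NZW/LacJ animals fell on both sides of the vehicle mean in all 10 genes. Treated animals 1 and 4 read higher than treated animals 2 and 3 in 10 of 10 genes, a pattern shown by 22.1% of all tested genes. Animals 1 and 4 were above every vehicle animal in 9 of the 10, and animals 2 and 3 were both below the vehicle mean in all 10. The share of all tested genes with these last patterns was not counted, so they are not read as particular to the matrix genes. Over the 8 tested genes the mean difference from the vehicle mean was 0.82, -0.37, -0.70 and 1.47 in treated animals 1 to 4, against -0.10 to 0.20 in vehicle animals. The genes are 1 set measured on the same arrays, and these animals were singled out after their values were seen, so no test is given.

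**Figure D4:**
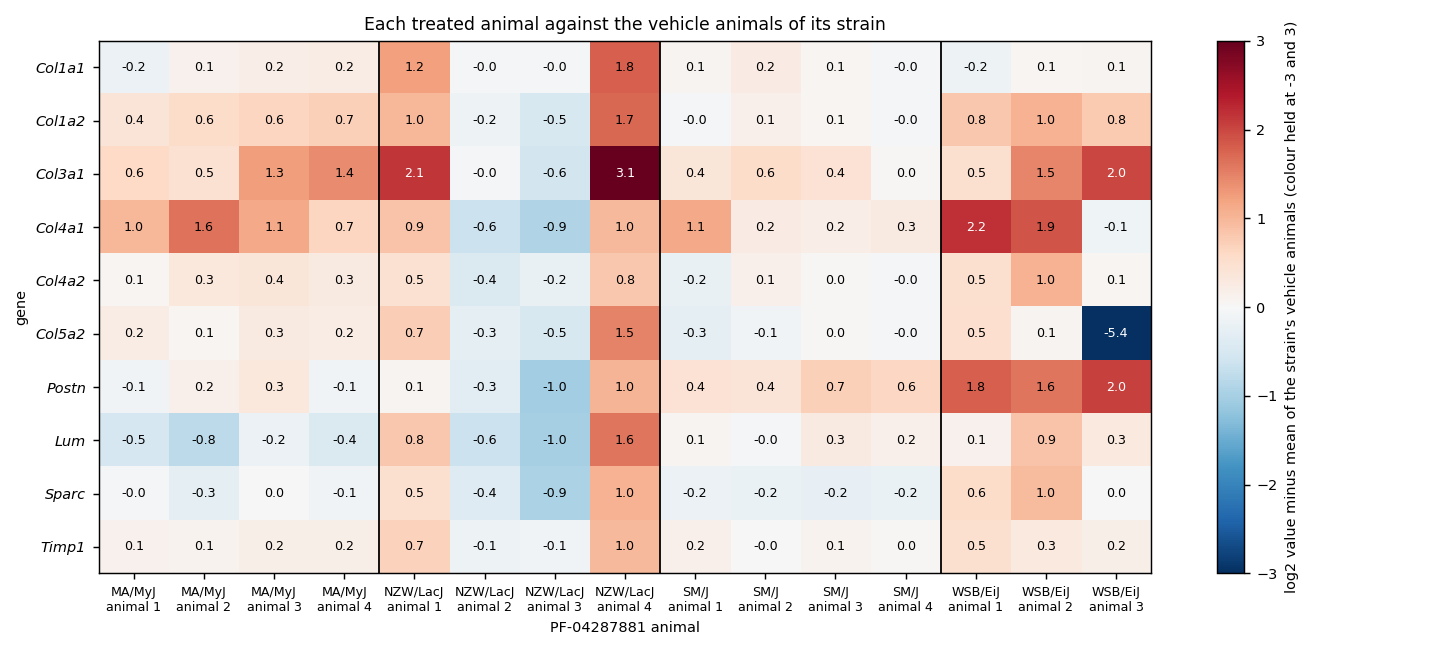
Log2 value of each gene (rows) in each of the 15 PF-04287881 animals (columns) minus the mean of the 4 vehicle animals of the strain, as colour and number. NZW/LacJ animals 1 and 4 are above 0 for every gene and animals 2 and 3 below it, and the array in doubt reads -5.4 for Col5a2.

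Other cell markers moved with the same animals. Of 18 Kupffer cell and macrophage markers, all tested, the mean difference was 1.36, 0.52, 0.11 and 1.66 in NZW/LacJ treated animals 1 to 4. It was 0.20, -0.16, -0.50 and 0.53 for 15 hepatic stellate cell markers, 1.00, 0.15, -0.05 and 1.24 for 7 myofibroblast and contractile markers, and -0.06, -0.36, -0.71 and 0.29 for 16 sinusoidal endothelial markers. For 10 hepatocyte markers it stayed between -0.03 and 0.07. The order of the 4 animals was thus the same for the matrix genes and the non-hepatocyte lists named here, and the part of those cells in the matrix values was not tested.

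**Figure D5:**
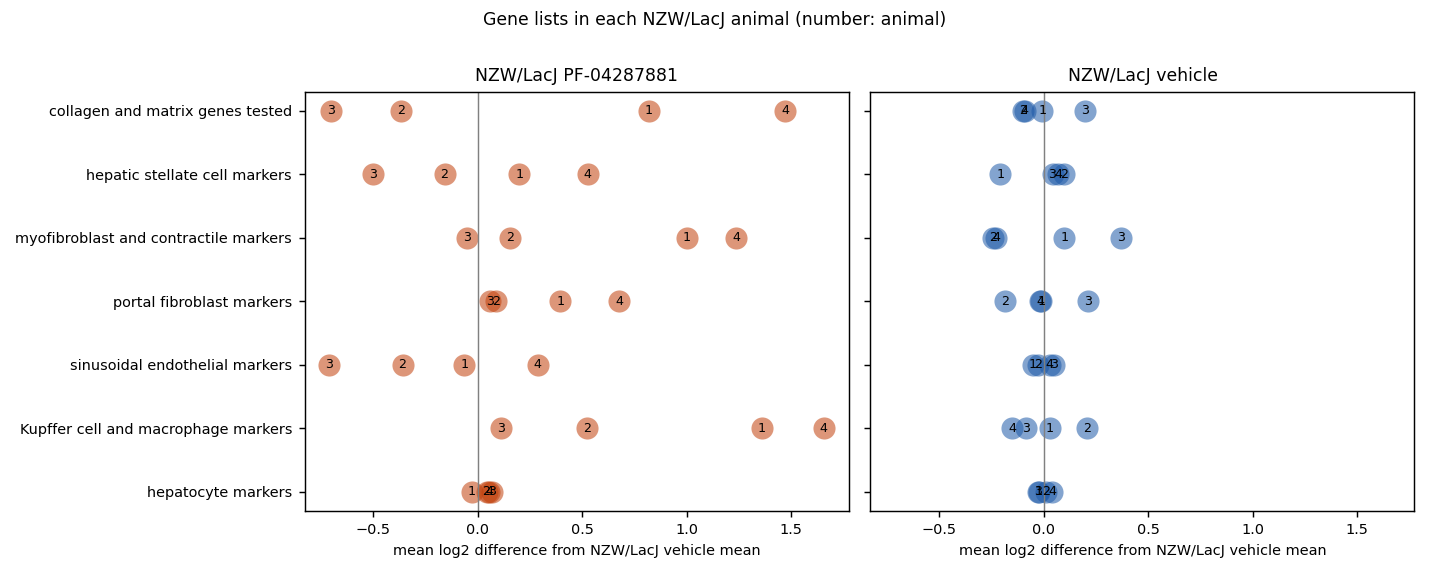
Mean log2 difference from the NZW/LacJ vehicle mean (x axis) of the matrix genes and 6 marker lists (y axis) in each NZW/LacJ animal, PF-04287881 left and vehicle right, numbers naming the animal. Treated animal 4 is highest at 1.47 for the matrix genes and 1.66 for macrophage markers, while hepatocyte markers stay near 0.

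Among other genes of the matrix, the average effect was higher in 5 and lower in 2 of 21 further collagens, including Col4a5 (0.78), Col6a1 (0.51) and Col6a3 (0.43), chains of types IV and VI, and Col13a1 (-0.30), a membrane collagen. Of all tested genes 13.3% were higher and 8.92% lower, which is the measure for this and the following counts. Of 19 genes of collagen folding, cross-linking and processing, 4 were higher and 1 lower, with Pcolce, an enhancer of procollagen cleavage, at 0.50. Of 14 basement membrane partners of type IV collagen, 5 were higher and 3 lower, with the linker Nid1 at 0.65 and the laminin chain Lamb3 at -1.04. Of 14 metalloproteinases 4 were higher and 0 lower, led by the macrophage elastase Mmp12 (1.46), and of 18 genes of TGF-beta and PDGF signalling 3 were higher, including the growth factors Pdgfa (0.41) and Pdgfc (0.36). Among these calls, Ltbp3 of the signalling list (0.16) was lost in 19 of 31 fits without 1 animal, and Mmp2 (0.26) in 10. Of 9 collagen receptors 0 passed by limma, and 0 at an unadjusted p under 0.05, with Lair1, a collagen-binding inhibitory receptor of immune cells, at 0.18 and Cd36 at 0.08. Among 7 small leucine-rich proteoglycans the relative of lumican Omd was higher (0.98), and of 18 matricellular and elastic matrix genes Eln (0.21), which encodes elastin, and Fn1 (0.10), fibronectin. The Eln call was lost in 17 of 31 fits without 1 animal, and Fn1 was at -0.033 on its probe set of largest spread. Of 3 other protease inhibitors 0 passed by limma, 1 at an unadjusted p under 0.05, with Timp3 at 0.30. The medians of these lists lay between -0.04 and 0.08, against 0.0043 over all tested genes. Without the array in doubt each gene named here as higher or lower kept its sign and passed, with Col4a5 at 0.67.

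The marker lists are set against the same 13.3% of all tested genes higher and 8.92% lower. These lists and those above were chosen with earlier results of these data known, so their counts are a description and not a test. Of 18 macrophage markers 15 were higher and 0 lower, including Cd68 (1.99). Of 16 sinusoidal endothelial markers 11 were lower and 0 higher, including Gpr182 (-0.66). Without the array in doubt these were 15 higher and 0 lower, and 1 higher and 10 lower. Of all tested genes 18.4% were then higher and 14.2% lower. The mean macrophage marker difference from the strain's vehicle mean ranged over 0.11 to 1.85 in the 15 treated animals and -0.28 to 0.22 in the 16 vehicle animals, and the endothelial one over -0.79 to 0.29 and -0.17 to 0.18. For stellate cell markers these ranges were -0.50 to 0.53 and -0.21 to 0.16, and for myofibroblast markers -0.05 to 1.24 and -0.29 to 0.37. Of 15 stellate cell markers 1 was higher, Cygb (0.26), and 1 lower, Ngfr (-0.19), a call lost in 13 of 31 fits without 1 animal (adjusted p up to 0.088). Of 7 myofibroblast and contractile markers 4 were higher, S100a6, Crip1, Vim and Lgals1, genes that macrophages also express. Of 8 portal fibroblast markers 3 were higher, Gas6 (0.73), Entpd2 (0.37) and Eln (0.21). Of 4 genes listed as mesothelial markers 2 were higher, Krt8 (0.74) and Krt18 (0.39), keratins that are not particular to mesothelial cells. Of 10 hepatocyte markers 1 was higher, Ahsg (0.09), a call lost in 9 of 31 fits without 1 animal. Of 5 cholangiocyte and 4 lymphocyte or neutrophil markers 0 passed by limma, 1 and 0 at an unadjusted p under 0.05. Their part in the rise of Col1a2, Col3a1, Col4a1 and Postn was not tested.

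Over the 31 arrays, the genes whose centred values lay nearest to Col3a1 were Aif1, H2-Eb1 and Tyrobp, at root-mean-square differences of 0.51, 0.55 and 0.56, against 1.13 for the spread of Col3a1 itself. Those nearest to Col4a1 were Rnf144a, Myc and Cenpt, at 0.42, 0.45 and 0.45, against 0.74 for Col4a1 itself. The arrays share strain and treatment groups, and the values are a description.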

How the data were processed

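RNA from left liver lobe was measured on 31 1-colour arrays in 8 groups of strain and treatment, taken from the labels. The deposited values are log2 values per probe set, made by the authors with Affymetrix Power Tools and RMA, per the submitters' processing notes. Their versions and the array's genome build are not given in the sources used here. RMA normalises arrays by quantiles, so array medians lay between 6.43 and 6.54, and differences are relative to the bulk of probe sets. Of 44721 probe sets, 34728 had 1 symbol in the platform annotation, 872 had several and 9121 had none. Symbols of 34525 were updated by Entrez number with RefSeq's GRCm38.p6 annotation.

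Genes above 6.49 in at least 3 arrays were tested with limma 3.58.1 in R 4.3.3 (data.table, version 1.17.8), with 1 mean per group, eBayes (3.17 prior and 23 residual degrees of freedom) and two-sided Benjamini-Hochberg adjusted p under 0.05 over 12890 genes. Results were tabulated in Python 3.11.15 with pandas 2.3.3 and numpy 2.4.6. The fits were tested on simulated data. Replicates are separate animals, and their number limits the precision. Animal numbers were not used to pair treated with vehicle animals in the fit over all arrays. Deviations from group means of same-numbered animals correlated at -0.52 to 0.41, both extremes in WSB/EiJ. With 3 or 4 animals a group, this cannot show whether the numbers mark pairs. List members named are at most 4 that passed with the largest average effect, or 2 as values where none passed. Genes most like Col3a1 and Col4a1 were named by root-mean-square difference. Col1a1, also under that rule, was not among the tested genes. The members and lists were chosen with earlier results of these data known. Alternatives left out each array, changed the filter, the probe set choice, centring and weights, and fitted strains alone.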

Additional observations from a re-analysis of the deposited data

Results flagged for a closer look

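In 70 groups of 4 animals, 2 held an animal far from the other 3, with a gap of more than 0.829 of the group's range, while chance flags about 1 in 20 groups. Col3a1 in SM/J vehicle animal 3 read 8.64, against 8.11 to 8.15 in the others, a gap of 0.919 of the range. Col4a1 in SM/J PF-04287881 animal 1 read 10.03, against 9.08 to 9.16 in the others, a gap of 0.91 of the range. Postn responded differently by strain, with an adjusted p of 0.00161 for the strain-by-treatment terms (limma). Its effect in the strains coded for vacuolation minus the others was -1.182, and that in the strain coded for necrosis minus the others was -0.8794.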

How the results depend on the processing

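Counts are of the 10 genes passing among those that each setting tested, 8 over all arrays. Shares of all tested genes moved with the setting too. Without the array in doubt they rose from 4.14% to 7.3% in MA/MyJ and from 19.3% to 32.4% in WSB/EiJ. They also rose from 19.4% to 32.4% for strain-by-treatment terms and from 15.1% to 21.8% for the necrosis contrast. A change in a count below is therefore not read as a result about the 10 genes. MA/MyJ had 0 over all arrays, 1 without the array in doubt, with array weights or without both WSB/EiJ arrays that stood apart (an alternative chosen after seeing the data, which also left out vehicle animal 4), and 3 with each strain fitted alone. NZW/LacJ had 0, and 1 with no filter (Col1a1) or with the mean of probe sets (Col3a1). SM/J had 0, and 1 with array weights or alone. WSB/EiJ had 3, 1 alone and 5 without both arrays. Genes passing there were Col4a1 and Postn with the mean of probe sets, and Col1a2 and Postn on the probe set of largest spread. With array weights they were Col1a2, Col4a1, Col4a2 and Postn. Strain-by-treatment terms had 1, 2 without the array in doubt or both arrays, and 3 with array weights. The necrosis contrast had 1, and 2 under each of those. Leaving out 1 animal gave 4 to 5 for the average, 0 to 1 in MA/MyJ, 0 to 2 in NZW/LacJ, 0 in SM/J, 1 to 5 in WSB/EiJ, 1 to 2 for strain-by-treatment terms, 1 for vacuolation, 0 to 2 for necrosis and 5 to 7 for vehicle strain differences. The causes were not tested. With the replicate number as a block, the counts were as over all arrays, 4 for the average and 3 in WSB/EiJ.

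Signs turned for Col5a2, for differences of the 10 genes that had not passed, and, on another probe set, for Cd36 and the called genes Mia3, Mmp23 and Fn1. With array weights, Col4a1 was -0.061 and Sparc -0.040 in NZW/LacJ, Col4a2 0.042 and Col5a2 0.026 in SM/J, and Postn in MA/MyJ minus NZW/LacJ vehicle animals 0.053. Col5a2 averaged 0.12 with array weights, 0.19 without the array in doubt and 0.25 without both arrays, and 0.064, 0.29 and 0.53 in WSB/EiJ. On the probe set of largest spread, Cd36 was -0.072, Fn1 -0.033, Mia3 -0.11 and Mmp23 -0.020. Leaving out 1 animal, the average ranged over -0.54 to 0.19 for Col5a2, -0.051 to 0.17 for Lum and -0.024 to 0.14 for Sparc. In NZW/LacJ it ranged over -0.23 to 0.40 for Col4a1, -0.067 to 0.35 for Col4a2, -0.0042 to 0.65 for Col5a2, -0.44 to 0.25 for Postn, -0.28 to 0.59 for Lum and -0.28 to 0.38 for Sparc. In WSB/EiJ it was -2.64 to 0.29 for Col5a2 and -0.050 to 0.069 for Col1a1, in MA/MyJ -0.090 to 0.15 for Postn, and for Postn in MA/MyJ minus NZW/LacJ vehicle animals -0.14 to 0.10. In SM/J it was -0.0047 to 0.075 for Col1a2, -0.076 to 0.046 for Col4a2 and -0.0017 to 0.18 for Timp1. Another 45 contrasts of single genes, 0 of them called over all arrays, were dropped from this comparison after reversals had been seen, and 13 of them reversed in some setting. The limit of 1 WSB/EiJ array in doubt and 3 or 4 animals a group holds throughout. Fits without that array are limited further, to 2 treated WSB/EiJ animals.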
